A study of Mus musculus with 3 samples.

Results

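The glutathione transferase genes followed here through mouse back skin were Gsta2, Gsta3 and Gsta4 of the alpha class, Gstm1 and Gstm5 of the mu class, Gstp1 of the pi class, Gsto1 of the omega class, and Mgst1, Mgst2 and Mgst3 of the microsomal family. They were taken from a list of symbols, chosen with earlier results of these data known, and make up 10 of the 32285 genes counted. Their levels were read in cell classes gated by 100 marker genes that include none of them. Skin cells of untreated Wildtype mice at postnatal day 38 (P38, male, hair follicles in catagen), 6 months (female, mostly anagen) and 12 months (male, telogen and anagen mixed) were profiled by droplet single-cell RNA sequencing, 1 library per age. According to the study's methods the mice carried the Krt14-H2BGFP reporter, which marks epithelial cells by fluorescence, and cells were sorted so that epidermal and hair follicle cells were enriched, whereas the labels name dissociated total back skin. The paper puts the near absence of dermal cells at P38 down to sorting that sample for reporter-positive cells. The libraries of P53 and 24 months and the open-chromatin libraries were not analysed here. With 1 library per age, age cannot be told apart from hair cycle stage, cell sorting, sequencing depth and library, nor, at 6 months, from sex. Values at different ages are therefore given with counting intervals and no test.

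Glutathione transferases join the tripeptide glutathione to electrophiles, which include drugs, pollutants and the aldehydes and hydroperoxides that form when lipids are oxidized. The cytosolic classes (alpha, mu, pi, omega) and the membrane-bound microsomal enzymes arose separately and share the substrate rather than the fold. In skin they are known as part of the barrier against applied chemicals and ultraviolet light, and many of their genes carry antioxidant response elements, the sites bound by the transcription factor Nrf2.

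Each library held unique molecular identifiers (UMIs), one for each captured RNA molecule. From 2397, 4761 and 5421 barcodes at P38, 6 months and 12 months, 2109, 3502 and 3240 cells passed the study's stated filter, with median depths of 16170, 1019 and 11438.5 UMIs. The study states clearly fewer cells for the 6 months library after the same filter, so its set of cells there is not the one used here. Marker gating placed 5893 of the 8851 kept cells into classes, which are named "-like" because they rest on markers alone. Interfollicular epidermis (IFE) basal-like and spinous-like cells, cells of the upper hair follicle (Upper HF-like), hair follicle stem cell-like (HF-SC-like), hair germ-like and sebaceous gland-like (SG-like) cells were found at all 3 ages, and fibroblast-like and immune classes at 6 and 12 months. The SG-like class was small and uneven in depth, with 50, 69 and 60 cells of 21264, 654 and 653 median UMIs. The 6 and 12 months libraries shared 81 kept barcodes, and in the SG-like class 41 of 69 cells at 6 months and 39 of 60 at 12 months carried a barcode that another library also held (39 barcodes were SG-like in both, and 65 of the 81 had the same class in both). All 6 inner bulge markers had a UMI in the 6 months cells that passed that gate. Only 2 of the 6 were at least 2-fold above the rest of the library, and the cells stayed unnamed. No T cell-like, fibroblast-like or other dermal class reached 20 cells at P38. Levels are given as CPM, the UMIs of a gene scaled by the class total, and as the reads come from 3′ ends they are not divided by gene length, and intervals are exact Poisson 95% intervals that cover counting error only.

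Before the levels, the promoters of the members the results turn on are shown, because the class in which a member was high differed between them. Promoters from RefSeq (GRCm38.p6) matched 9 of the 10 members, at 11 start sites, and Gsta4 had no entry. Each run below is the 250 bases before a start site, 5′ to 3′ on the gene's strand. Capitals mark matches, on either strand, of the antioxidant response element core (TGACNNNGC), the AP-1 site (TGANTCA) and the TATA box (TATAAA).
Mgst1 (chr6:138140277-138140526, + strand): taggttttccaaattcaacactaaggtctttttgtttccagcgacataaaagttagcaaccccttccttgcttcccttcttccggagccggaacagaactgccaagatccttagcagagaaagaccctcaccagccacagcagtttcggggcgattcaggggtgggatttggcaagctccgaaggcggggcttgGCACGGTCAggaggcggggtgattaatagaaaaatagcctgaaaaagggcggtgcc
Gsta3 (chr1:21240335-21240584, + strand): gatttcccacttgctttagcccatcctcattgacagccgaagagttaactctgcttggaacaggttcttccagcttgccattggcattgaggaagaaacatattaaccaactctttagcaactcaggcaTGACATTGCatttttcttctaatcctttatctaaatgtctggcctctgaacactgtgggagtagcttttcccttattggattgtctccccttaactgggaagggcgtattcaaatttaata
Gsta2 (chr9:78347146-78347395, - strand): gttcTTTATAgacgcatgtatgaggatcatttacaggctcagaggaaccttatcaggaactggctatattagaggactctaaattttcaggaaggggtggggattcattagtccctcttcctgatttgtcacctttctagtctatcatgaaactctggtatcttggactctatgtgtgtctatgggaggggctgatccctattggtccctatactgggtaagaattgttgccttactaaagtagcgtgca
Gstm5 (chr3:107895604-107895853, + strand): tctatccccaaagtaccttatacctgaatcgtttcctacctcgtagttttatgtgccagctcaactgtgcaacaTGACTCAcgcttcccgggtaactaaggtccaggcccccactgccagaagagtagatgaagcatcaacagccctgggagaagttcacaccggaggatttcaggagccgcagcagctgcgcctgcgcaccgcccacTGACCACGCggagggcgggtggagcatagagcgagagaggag
Gstp1 (chr19:4037913-4038162, - strand): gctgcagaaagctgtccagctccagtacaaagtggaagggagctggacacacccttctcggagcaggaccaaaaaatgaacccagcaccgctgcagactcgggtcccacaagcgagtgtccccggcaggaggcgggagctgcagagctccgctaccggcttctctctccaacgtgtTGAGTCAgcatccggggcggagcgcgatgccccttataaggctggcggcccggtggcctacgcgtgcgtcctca
Mgst2 (chr3:51660929-51661178, + strand): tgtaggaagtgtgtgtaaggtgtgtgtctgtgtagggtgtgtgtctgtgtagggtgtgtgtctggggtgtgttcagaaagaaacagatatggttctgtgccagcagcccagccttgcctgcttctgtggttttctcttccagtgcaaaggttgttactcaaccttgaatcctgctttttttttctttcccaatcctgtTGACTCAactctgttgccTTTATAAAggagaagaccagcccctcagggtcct
An antioxidant response element core was found 56 bases before the first of the Mgst1 start sites, 121 before that of Gsta3 and 42 before that of Gstm5. An AP-1 site lay 74 bases before the Gstp1 start, 52 before that of Mgst2 and 176 before that of Gstm5. The TATA box letters stood 34 and 32 bases before the Mgst2 start and 246 before that of Gsta2. Over the same 250 bases, 10.2% of 32851 promoters held the antioxidant response element core, 6.75% the AP-1 letters and 12.4% the TATA box letters. A match thus describes the sequence and no more.

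The members lay on 5 chromosomes in the deposited build (mm10, GRCm38; GENCODE M21 annotation). Gstm1 (chr3:108012255-108017973, minus strand, 8 exons) and Gstm5 (chr3:107895821-107898686, plus strand, 8 exons) lay on one chromosome, as did Gsta4 (chr9:78182774-78209349) and Gsta2 (chr9:78331018-78355788). Gstp1 (chr19:4035407-4037985) shared 68.1% of the 90-base windows of its last 500 transcript bases, the part that 3′ libraries read, with Gstp2 and Gstp-ps. For Gsta2 the share was 10.5%, with Gsta1, Gm10639 and Gm3776, and for the other 8 members it was 0. Counts of Gstp1, and to a lesser degree of Gsta2, are therefore uncertain.

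**Figure D1:**
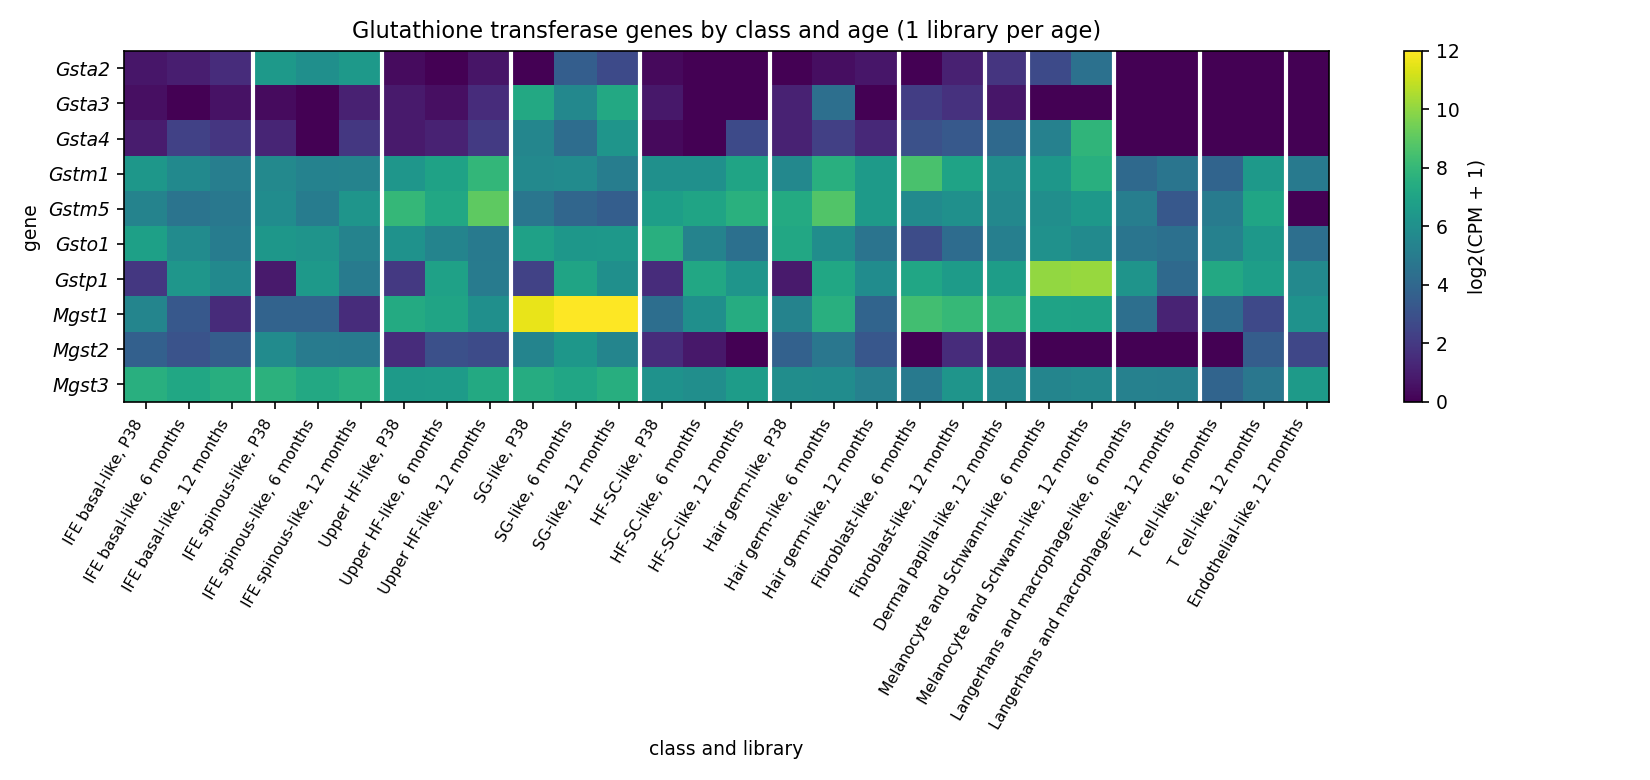
Levels of the 10 genes as log2(CPM + 1), colour scale from 0 to 12, with genes in rows and the classes of each library in columns. Mgst1 stands out in the 3 SG-like columns (3128, 3978 and 4021 CPM), Gsta2 in the 3 IFE spinous-like columns and Gstp1 in the 2 melanocyte and Schwann-like columns.

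Sebaceous gland-like cells carried the highest glutathione transferase level of any class, most of it Mgst1. Mgst1, a microsomal transferase that also reduces lipid hydroperoxides, was at 3128, 3978 and 4021 CPM in SG-like cells of P38, 6 months and 12 months, against 42.8, 8.92 and 1.74 CPM in IFE basal-like cells. The values of the classes did not overlap, and at least 1 Mgst1 UMI was found in all 50 SG-like cells of P38, in 66 of the 69 of 6 months and in 59 of the 60 of 12 months. Thinned to 1000 UMIs per cell, 90.6%, 93.9% and 89.5% of SG-like cells of at least that depth (48, 16 and 17 cells) held one. In T cell-like cells (median depths 4434 and 4492 UMIs), which served as a guide to free RNA, Mgst1 was at 17.1 CPM and in 7.94% of 63 cells at 6 months, and at 5.23 CPM and in 2.44% of 41 cells at 12 months. Mgst1 made up 83.9%, 87.4% and 86.2% of the UMIs of the 10 members in SG-like cells. The study itself used Mgst1, beside Scd1, to name its sebaceous cells in these libraries, so a high level in such cells was known beforehand. The gate used here held Scd1 and no glutathione transferase gene.

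Class contrasts were tested over the libraries with edgeR's quasi-likelihood test on summed UMIs, with the library as a block and Benjamini-Hochberg adjustment over 14079 genes. The block takes out differences between libraries that all classes share. These p-values thus rest on how class differences vary between libraries, which are of different ages, with the spread estimated over all class sums. All 10 members passed the filter on low counts, which ran over all class sums. Gsta2, Gsta3 and Gsta4 held at most 11, 3 and 16 UMIs in IFE basal-like cells of any library. They thus met the filter through classes where they were higher. Without the filter, the same members were called in SG-like and in IFE spinous-like against IFE basal-like cells. In SG-like against IFE basal-like cells 4 of 10 passed, all higher, where 8.6% of all genes were called higher and 21.7% were called in either direction. The median log2 fold change of the 10 was 0.90, against -0.24 over all genes. Over the 17 other glutathione transferase genes tested it was -1.44. As the members were chosen with earlier results of these data known, these counts and medians are a description.

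Mgst1 differed by a log2 fold change of 7.60 ± 1.27 (SE, adjusted p = 0.000106). Gsta3, an alpha class enzyme whose human counterpart isomerizes steroid hormone precursors, was at 148.0, 47.6 and 148.7 CPM in SG-like cells, against 0.388, 0 and 0.523 CPM in IFE basal-like cells. Its log2 fold change was 7.84 ± 1.10 (adjusted p = 2.89e-05). Gsta4, which conjugates the lipid peroxidation product hydroxynonenal, was at 44.1, 18.3 and 75.7 CPM in SG-like cells, against 0.904, 3.96 and 2.79 CPM in IFE basal-like cells. For Gsta4 the log2 fold change was 4.18 ± 0.68 (adjusted p = 0.000112). Both alpha class genes were higher than in the basal cells in every library, but at 6 months the SG-like levels rested on 13 Gsta3 and 5 Gsta4 UMIs, and the Gsta4 intervals of that library overlapped (5.95 to 42.7 CPM in SG-like and 1.71 to 7.81 CPM in IFE basal-like cells). Mgst2, which can make leukotriene C4, was at 42.0, 80.6 and 43.3 CPM in SG-like cells, against 12.0, 7.43 and 10.6 CPM in IFE basal-like cells (log2 fold change 2.07 ± 0.53, adjusted p = 0.00707). The Mgst2 call was lost when classes were taken from clusters and when cells needed at least 1000 genes (adjusted p up to 0.163 over the alternatives), and the 1000-gene minimum left 20 or more SG-like cells at P38 alone.

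Without the shared barcodes, 28 SG-like cells were left at 6 months and 21 at 12 months, and Mgst1 was at 3736 and 3812 CPM in them. Gsta3 was then at 32.7 and 156.9 CPM, Gsta4 at 20.5 and 69.7 CPM, and the same 4 members passed the test. With classes from clusters Mgst1 in SG-like cells was at 3689, 2430 and 2615 CPM at the 3 ages, Gsta3 was at 27.7 CPM at 6 months, and Gsta4 was at 11.1 CPM at 6 months and 46.9 CPM at 12 months. The other 6 members did not pass in SG-like cells. Their log2 fold changes ran from -0.93 ± 0.62 for Gstm5 to 1.38 ± 0.91 for Gsta2. Immediate early genes, a sign of dissociation stress, were lower in SG-like cells for 9 of 12 genes listed, and their part in these contrasts was not tested.

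**Figure D2:**
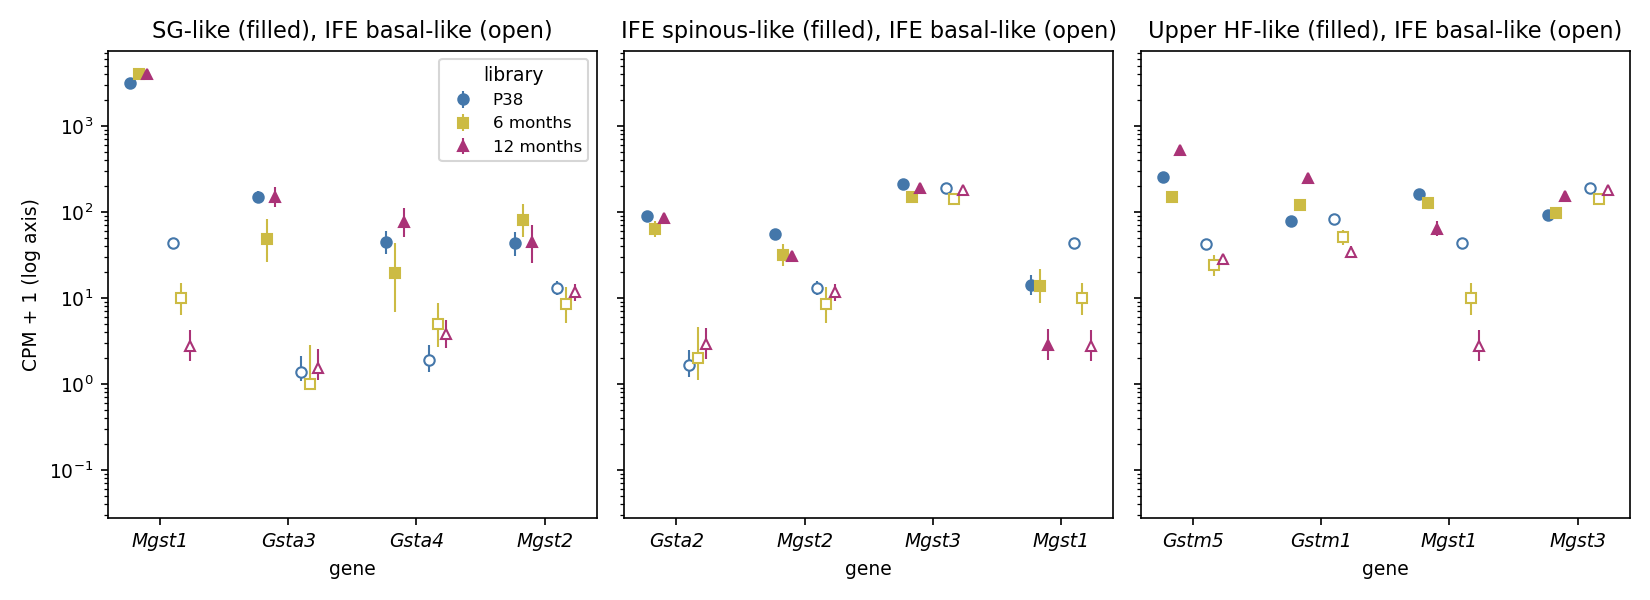
CPM + 1 on a log axis for 4 genes in SG-like, IFE spinous-like and Upper HF-like cells (filled) and the same genes in IFE basal-like cells (open), 1 point per library with its Poisson 95% interval. Mgst1, Gsta3 and Gsta4 in SG-like cells, Gsta2 in IFE spinous-like cells and Gstm5 in Upper HF-like cells lie above the basal values in each library.

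In the epidermis Gsta2 was high in the IFE spinous-like cells, the first layer above the basal cells. Gsta2, an alpha class enzyme with activity toward lipid hydroperoxides, was at 88.7, 61.9 and 84.8 CPM in IFE spinous-like cells of P38, 6 months and 12 months, against 0.646, 0.991 and 1.92 CPM in IFE basal-like cells. The values did not overlap, and the log2 fold change was 6.08 ± 0.55 (adjusted p = 1.94e-06, range 8.81e-14 to 0.00202 over 13 alternatives). At least 1 Gsta2 UMI was found in 47.0%, 42.7% and 44.7% of IFE spinous-like cells. Thinned to 1000 UMIs the shares were 8.14%, 6.39% and 6.88%. T cell-like cells held no Gsta2 UMI, which allows up to 10.3 CPM at 6 months and 15.7 at 12 months (3 counts of the class total). Of the UMIs in IFE spinous-like cells, 49.4%, 47.7% and 52.1% came from the tenth of cells with the most. In every other class with at least 20 cells Gsta2 stayed at or below 21.04 CPM, its value in the melanocyte and Schwann-like cells of 12 months.

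Mgst2 was the other member that passed in IFE spinous-like against IFE basal-like cells (2 of 10 members called, both higher, where 3.22% of all genes were called higher, 4.51% lower and 7.73% in either direction). It was at 54.1, 31.0 and 29.5 CPM in IFE spinous-like cells, against 12.0, 7.43 and 10.6 CPM in IFE basal-like cells (log2 fold change 1.84 ± 0.49, adjusted p = 0.0221). The call was lost with classes from clusters, without the library block, without P38 and without 12 months (highest adjusted p 0.22), so it rests on those choices. Mgst3, a microsomal enzyme with peroxidase activity, was the leading member in both epidermal classes. It was at 210.8, 149.0 and 187.4 CPM in IFE spinous-like cells, against 187.8, 140.2 and 180.6 CPM in IFE basal-like cells (log2 fold change 0.08 ± 0.25, adjusted p = 0.972). Mgst1 in IFE spinous-like cells was at 13.2, 12.96 and 1.85 CPM and did not pass the test against IFE basal-like cells. In the 57 IFE granular-like cells of 6 months, whose median depth was 579 UMIs, the 10 members summed to 90.3 CPM, against 484.6 in IFE spinous-like and 368.1 in IFE basal-like cells of that library.

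In the upper follicle Gstm5 had the largest share of the members' UMIs at each age. Gstm5, a mu class transferase, was at 251.4, 147.6 and 521.4 CPM in Upper HF-like cells, against 40.9, 23.3 and 27.2 CPM in IFE basal-like cells. The values did not overlap, with a log2 fold change of 3.28 ± 0.54 (adjusted p = 0.000149). Gstm5 alone passed in that contrast (1 of 10 members, where 7.2% of all genes were called higher). Gstm5 levels in the HF-SC-like class of the 3 ages were 106.6, 128.8 and 195.9 CPM, again above each basal value (log2 fold change 1.94 ± 0.52, adjusted p = 0.0132). That call was lost without the 12 months library (adjusted p = 0.0571).

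In HF-SC-like against IFE basal-like cells 3 of 10 members passed, 1 higher and 2 lower (where 6.44% of all genes were called higher and 5.97% lower). Mgst3 stood at 68.6, 60.8 and 99.8 CPM in the HF-SC-like class, against 187.8, 140.2 and 180.6 CPM in IFE basal-like cells (log2 fold change -1.43 ± 0.26, adjusted p = 0.000407). Mgst2 stood at 1.87, 0.724 and 0 CPM in the HF-SC-like class, against 12.0, 7.43 and 10.6 CPM in IFE basal-like cells (log2 fold change -3.25 ± 0.70, adjusted p = 0.0029). Both microsomal genes were lower in each library and kept the call in the 13 alternatives. Hair germ-like cells were named after the progenitors next to the stem cells. Their 4 markers summed to 602.4, 511.1 and 371.8 CPM in them, against 397.4, 620.8 and 468.2 CPM in the HF-SC-like class. The hair germ name is thus uncertain at 6 and 12 months. The 5 HF-SC markers were lower in hair germ-like cells at each age (9242, 2060 and 2106 CPM, against 15065, 18678 and 14629.5 CPM). Mgst2 also differed between these 2 classes, at 12.0, 26.2 and 8.69 CPM in hair germ-like cells, against 1.87, 0.724 and 0 CPM in HF-SC-like cells (log2 fold change 3.54 ± 0.70, adjusted p = 0.0127). It was the 1 member of 10 to pass there, where 0.739% of all genes were called higher, 0.888% lower and 1.63% in either direction, and the call was lost with classes from clusters, without 6 months and without 12 months (highest adjusted p 0.138).

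Mgst1 in the upper follicle was at 159.2, 126.0 and 63.0 CPM, against 42.8, 8.92 and 1.74 CPM in IFE basal-like cells. It was higher in each library without passing (log2 fold change 2.73 ± 1.03, adjusted p = 0.081), and passed under 5 of 13 alternatives. Gstm1, also of the mu class, was at 77.1, 120.7 and 244.5 CPM in Upper HF-like cells, against 80.9, 50.03 and 33.6 CPM in IFE basal-like cells (log2 fold change 1.33 ± 0.51, adjusted p = 0.0835). At P38 the Gstm1 intervals of the classes overlapped, and at 6 and 12 months they did not. With classes from clusters the P38 level of Upper HF-like cells was 116.4 CPM.

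**Figure D3:**
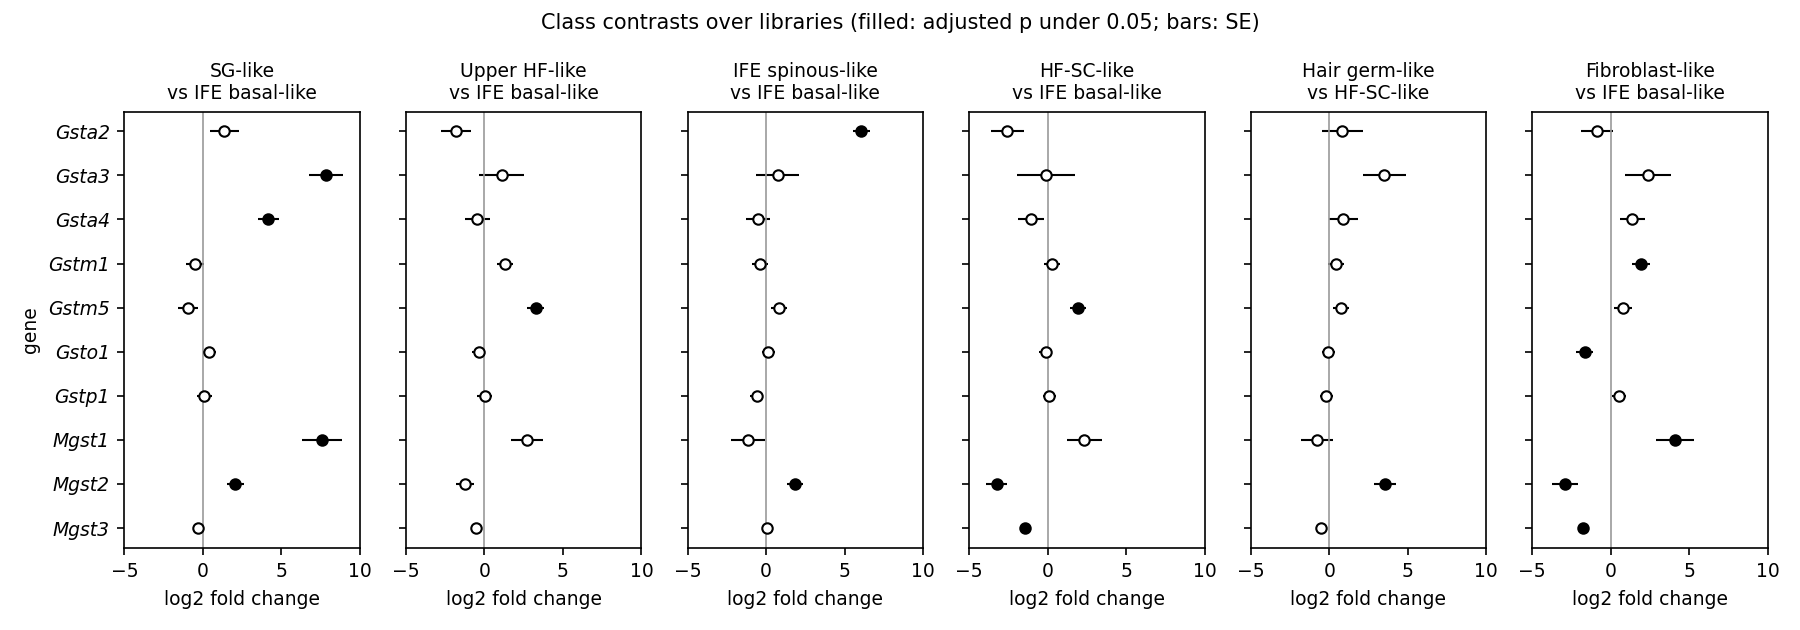
Log2 fold change of each member in the 6 class contrasts, with its SE as a bar and filled points where the adjusted p was under 0.05. Filled points to the right include Mgst1, Gsta3, Gsta4 and Mgst2 in SG-like cells and Gsta2 in IFE spinous-like cells, and filled points to the left include Mgst2 and Mgst3 in HF-SC-like and fibroblast-like cells.

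Among dermal classes, fibroblast-like cells could be tested. Fibroblast-like cells of 6 and 12 months held Mgst1 at 334.5 and 265.0 CPM, against 8.92 and 1.74 CPM in IFE basal-like cells of those ages (log2 fold change 4.08 ± 1.21, adjusted p = 0.0119). Gstm1, a mu class transferase, was at 370.5 and 122.2 CPM in fibroblast-like cells, against 50.03 and 33.6 CPM in IFE basal-like cells (log2 fold change 1.90 ± 0.57, adjusted p = 0.0127). Mgst3 was lower, at 30.2 and 75.2 CPM in fibroblast-like cells, against 140.2 and 180.6 CPM in IFE basal-like cells (log2 fold change -1.79 ± 0.31, adjusted p = 8.35e-05). Gsto1 was also lower, at 5.81 and 18.2 CPM in fibroblast-like cells, against 54.5 and 31.4 CPM in IFE basal-like cells (log2 fold change -1.66 ± 0.54, adjusted p = 0.0209). Mgst2 was at 0 and 1.90 CPM in fibroblast-like cells, against 7.43 and 10.6 CPM in IFE basal-like cells (log2 fold change -2.92 ± 0.85, adjusted p = 0.0119). In all, 5 of 10 members passed, 2 higher and 3 lower, where 17.6% of all genes were called higher, 12.2% lower and 29.8% in either direction, a high share in general. Fibroblast-like cells had 2 libraries, and the Gstm1 and Gsto1 calls were lost without 6 months (adjusted p = 0.426 and 0.404) and the Mgst1 and Mgst2 calls without 12 months (adjusted p = 0.164 and 0.0586).

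Gstp1, the pi class enzyme that also binds the stress kinase JNK, was highest in melanocyte and Schwann-like cells. It was at 1067 CPM in 41 such cells at 6 months and 1120 CPM in 24 at 12 months (from 196 and 213 UMIs). The next highest classes were at 168.1 CPM (mural and arrector pili muscle-like, 6 months) and 104.6 CPM (T cell-like, 12 months), and the intervals did not overlap. Those mural and arrector pili muscle-like cells held their own 6 markers at 1349 CPM in sum and the 6 IFE basal markers at 18859 CPM. Their Krt14 level was 11844 CPM, so the name of that class is uncertain. Gsta4 was at 38.1 and 231.4 CPM in the melanocyte and Schwann-like cells of 6 and 12 months, from 7 and 44 UMIs. P38 held 6 melanocyte and Schwann-like cells, under the minimum of 20 for a class, and no contrast was run.

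Across ages, Gstp1 was higher at 6 and 12 months than at P38 in every class that could be compared. It was at 2.84, 78.8 and 50.2 CPM in IFE basal-like cells of P38, 6 months and 12 months, at 0.807, 85.0 and 31.2 in IFE spinous-like, at 2.93, 115.4 and 31.2 in Upper HF-like, at 1.87, 146.9 and 74.6 in HF-SC-like and at 0.830, 140.6 and 57.0 in hair germ-like cells. Over all kept cells the P38 library held 79 Gstp1 UMIs of 34646663, the 6 months library 3041 of 24698719 and the 12 months library 2265 of 38910431. The log2 ratio of 6 months over P38 ran from 4.79 (95% interval 4.14 to 5.51) in IFE basal-like to 7.40 (5.54 to 10.5) in hair germ-like cells. For 12 months over P38 it ran from 3.41 (2.45 to 4.50) in Upper HF-like to 6.1004 (4.23 to 9.16) in hair germ-like cells. Over P38 and the older age together, 6 members held at least 50 UMIs in each of these 5 classes. Gstp1 was the 1 of them at least 2-fold higher in each class at either age. Of all genes with that depth, 0.358% (6 months) and 0.33% (12 months) were. Gstp1 had 22, 3, 11, 8 and 2 UMIs in these classes at P38, so it met the minimum through the older libraries. Its place beside these shares is thus not independent of where it was high. None of the 6 was at least 2-fold lower in each class at 6 months, where 0.239% of all genes were.

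Gstp2, which shares 3′ end windows with Gstp1, had 0 UMIs of 34646663 in the P38 library and 56 and 117 UMIs in those of 6 and 12 months. The 2 genes were thus both near or at 0 in the P38 library. That library's counts were made with Cell Ranger 6.1.2 and the other 2 with 6.0.0 according to the file headers. Software version, age, hair cycle stage, cell sorting, sequencing depth and library cannot be told apart. The mice of P38 and 12 months were male and those of 6 months female, and the part of sex was not tested. In T cell-like cells of 6 months Gstp1 was at 150.5 CPM (95% interval 109.3 to 202.0). Upper HF-like, HF-SC-like and hair germ-like cells of that library had intervals overlapping it, those of IFE basal-like and IFE spinous-like cells lay below it, and IFE granular-like cells were at 2.96 CPM. The part of free RNA was not tested.

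Gsto1, the omega class enzyme that reduces dehydroascorbate, went the other way. The HF-SC-like class of P38, 6 months and 12 months held 187.4, 39.8 and 20.7 CPM, a log2 ratio of -3.18 (-3.85 to -2.58) for 12 months over P38. In IFE basal-like cells it was at 112.3, 54.5 and 31.4 CPM, with a 12 months over P38 log2 ratio of -1.84 (-2.08 to -1.61). Upper HF-like cells had 69.1, 41.2 and 29.3 CPM and hair germ-like cells 144.5, 58.1 and 23.2 CPM. IFE spinous-like cells had 80.7, 74.2 and 40.4 CPM, a 12 months over P38 log2 ratio of -0.996 (-1.25 to -0.75). The intervals of 12 months over P38 excluded 0 in all 5 classes, and none of the 6 members was at least 2-fold lower in each class, where 0.975% of all genes were. Gsto1 missed this in IFE spinous-like cells only, and met it with at least 1000 genes per cell, with classes from clusters and without shared barcodes. No class contrast among epithelial classes passed for Gsto1.

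**Figure D4:**
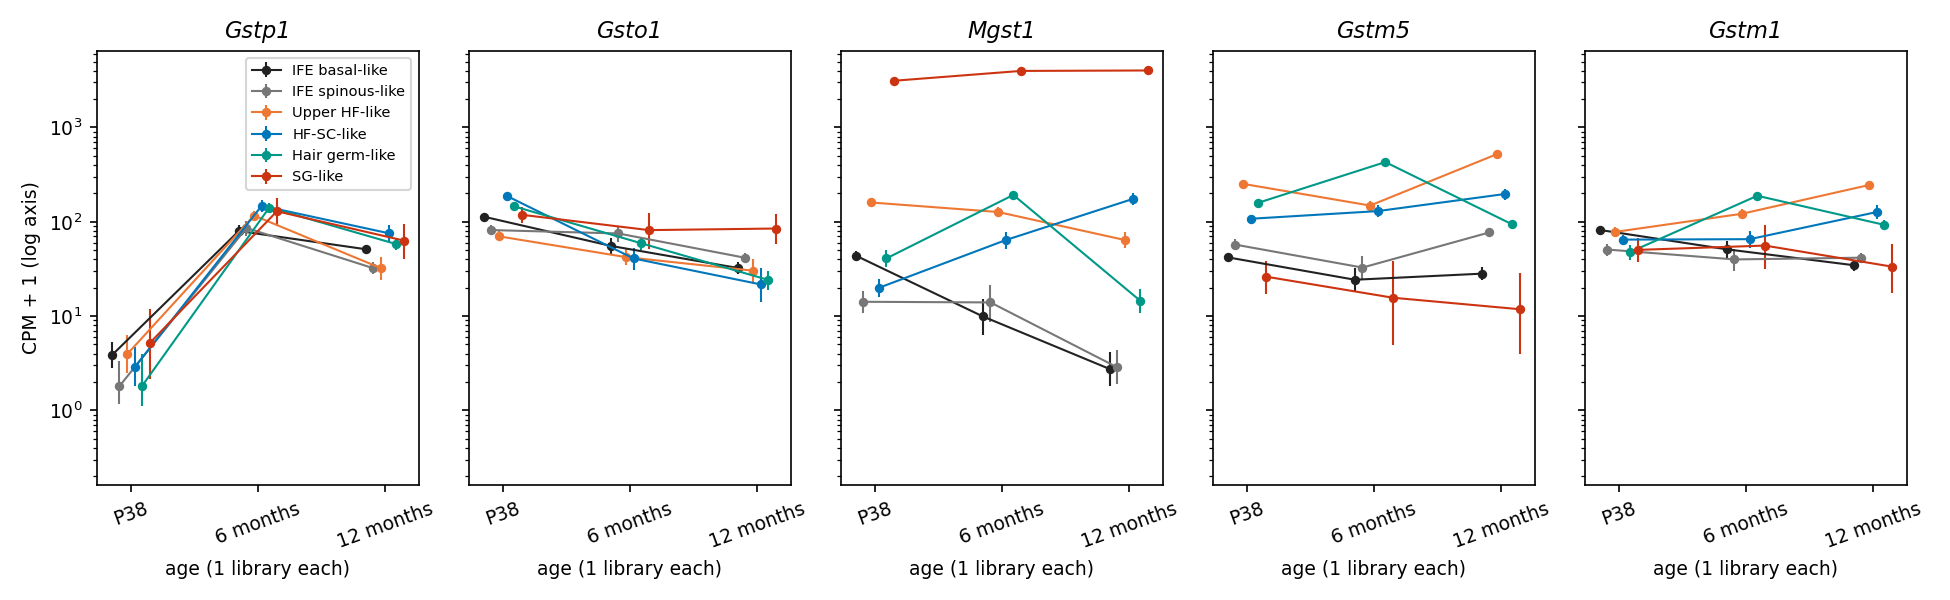
CPM + 1 on a log axis at P38, 6 months and 12 months for Gstp1, Gsto1, Mgst1, Gstm5 and Gstm1, 1 line per class with Poisson 95% intervals and 1 library per age. Gstp1 lies near 0 at P38 in every class, Gsto1 is lower at 12 months than at P38 in the 5 large classes, and the Mgst1 lines of HF-SC-like and IFE basal-like cells cross.

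Mgst1 in the epidermis and in the stem cells ran in opposite directions. The HF-SC-like class of P38, 6 months and 12 months held Mgst1 at 18.9, 62.9 and 173.4 CPM, with a 12 months over P38 log2 ratio of 3.20 (2.82 to 3.59). In IFE basal-like cells it was at 42.8, 8.92 and 1.74 CPM, with a ratio of -4.62 (-5.69 to -3.72). The IFE basal-like value of P38 was 69.95 CPM with classes from clusters and 30.7 CPM with the stricter margin. With the stricter margin that of 12 months was 1.13 CPM. The IFE basal-like values of 6 and 12 months came from 18 and 10 UMIs. They lay below the 17.1 and 5.23 CPM of T cell-like cells, the guide to free RNA, but those rested on 5 and 1 UMIs. P38 had no such guide, and the part of free RNA was not tested. In SG-like cells the 12 months over P38 log2 ratio of Mgst1 was 0.36 (0.27 to 0.45). The summed level of the 9 sebaceous markers came to 55.5, 46.3 and 49.4 CPM for the HF-SC-like class and 58.6, 99.6 and 93.5 CPM in IFE basal-like cells. The 5 upper follicle markers summed to 1155, 452.2 and 626.4 CPM for the HF-SC-like class and 1680, 1228 and 237.7 CPM in IFE basal-like cells. The 6 fibroblast markers summed to 7.93, 86.1 and 49.4 CPM for the HF-SC-like class and 0.904, 8.92 and 20.9 CPM in IFE basal-like cells. The part of cells or RNA of these other classes in the Mgst1 levels was not tested. With HF-SC-like cells below IFE basal-like cells at P38 and above them at 6 and 12 months, the class contrast of Mgst1 did not pass (log2 fold change 2.32 ± 1.12, adjusted p = 0.194). It passed under 3 of 13 alternatives, among them without P38 (log2 fold change 4.90, adjusted p = 0.00939), and without 12 months the log2 fold change was -0.052.

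In hair germ-like cells several members were highest at 6 months. Gstm5 levels there were 158.2 (P38), 428.6 (6 months) and 92.7 CPM (12 months), with Mgst1 at 39.9, 191.5 and 13.5 CPM, and Gstm1 at 46.9, 187.7 and 91.7 CPM. Over P38 and 6 months together, 8 members held at least 50 UMIs there. Of these, 6 were at least 2-fold higher at 6 months than at P38, where 8.96% of 7804 genes were. Among the 6, Gsta3, Gstp1 and Mgst2 had 3, 2 and 29 UMIs at P38, so they met the minimum through the 6 months library. Gsta3, otherwise seen in SG-like cells, was at 1.25, 19.8 and 0 CPM (52 UMIs at 6 months). In the same hair germ-like cells 5, 4 and 6 of the 6 inner bulge markers had at least 1 UMI. They summed to 1125, 1823 and 288.1 CPM at the 3 ages, and their part in the member levels was not tested. The 6 months cells of the inner bulge gate held these markers at 5752 CPM in sum and Mgst1 at 874.3 CPM. In the 1245 inner root sheath and hair shaft-like cells of 6 months, whose median depth was 556 UMIs, Mgst1 was at 683.1 CPM (656.5 to 710.6), and the class was not compared with other ages.

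Genes around the transferases were read from lists. Of 17 other glutathione transferase genes tested in SG-like against IFE basal-like cells, 2 were higher and 3 lower. Gstp3, a further pi class gene, was at 7.35, 80.6 and 62.2 CPM in SG-like cells, against 0.388, 0.495 and 1.57 CPM in IFE basal-like cells (log2 fold change 4.97 ± 0.71, adjusted p = 2.96e-05). Gstz1, a zeta class enzyme of tyrosine breakdown, was at 55.6, 157.5 and 127.1 CPM in SG-like cells, against 7.88, 11.9 and 8.71 CPM in IFE basal-like cells (log2 fold change 3.23 ± 0.32, adjusted p = 9.35e-08). Clic1, a chloride channel protein with a transferase fold, was lower at 159.6, 150.2 and 100.1 CPM in SG-like cells, against 647.4, 559.8 and 478.3 CPM in IFE basal-like cells (log2 fold change -2.31 ± 0.26, adjusted p = 6.58e-07). In IFE spinous-like against IFE basal-like cells, Hpgds and Gsta1 were the 2 higher and Gstm2 and Clic4 the 2 lower genes of this list, named after their values were seen.

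Of 15 genes of glutathione synthesis and recycling, 4 were higher and 1 lower in SG-like cells. Idh1, a cytosolic source of NADPH, was at 290.8, 677.6 and 216.3 CPM in SG-like cells, against 17.6, 19.8 and 27.35 CPM in IFE basal-like cells (log2 fold change 3.79 ± 0.47, adjusted p = 2.93e-06). Lap3, an aminopeptidase, and Pgd, an NADPH-forming enzyme of the pentose phosphate pathway, were higher too (log2 fold changes 3.40 ± 0.42 and 2.49 ± 0.37, adjusted p = 2.35e-06 and 3.18e-05). Among 6 glutathione peroxidases Gpx4, which reduces lipid hydroperoxides in membranes, was at 1087, 1586 and 1390 CPM in SG-like cells, against 276.1, 251.2 and 234.6 CPM in IFE basal-like cells (log2 fold change 2.15 ± 0.26, adjusted p = 1.71e-06), and Gpx1 and Gpx8 were lower. Of 5 transporter genes 1 was higher and 3 lower, and Abcc5 had the largest change (log2 fold change -4.05 ± 0.47, adjusted p = 1.04e-06). Of 18 genes of Nrf2 and its known targets outside glutathione, 5 were higher and 4 lower, Cbr1 the highest (log2 fold change 4.55 ± 0.36, adjusted p = 4.47e-09). Ptges, a further member of the microsomal enzyme family that makes prostaglandin E, was the 1 of 3 to pass, lower in SG-like cells. These lists moved in both directions, and their counts stand beside 21.7% of all genes called.

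As a description, the genes most alike were sought for each member over the 34 sums of library and class among 11010 genes that are no gate markers, by the correlation of log2(CPM + 1) centred within libraries. The sums share libraries and depth. Nearest to Gsta2 were Krt78 (r = 0.78), Mt4 (0.75) and Serpinb12 (0.74), and nearest to Gsta3 were Slc25a1 (0.87), Acbd6 (0.86) and Slc1a3 (0.86). Nearest to Mgst1 were Mrps33 (0.82), Clpp (0.81) and Ndufs4 (0.80), to Mgst3 Atpif1 (0.82) and to Gstp1 Vegfb (0.85). Among pairs of members, Gsta3 and Mgst1 were most alike (r = 0.71), followed by Gsta4 and Mgst1 (0.62).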

How the data were processed

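Single-cell suspensions of mouse back skin were profiled with 10x Chromium 3′ chemistry, 1 library per age. Deposited values are unnormalized counts of UMIs for each barcode, which the authors made with Cell Ranger against mm10 (6.1.2 in the submitters' processing notes, and 6.1.2 or 6.0.0 in the file headers). Replicates were not pooled. Cells with 201 to 4999 genes and under 15% mitochondrial UMIs were kept, as the study's methods state. The members, the markers and the other lists were chosen with earlier results of these data known.

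Each cell took the class of highest marker score (100 markers, 16 classes) over itself and its nearest neighbours (15 neighbours, 30 components, 2000 variable genes, no glutathione transferase gene among them), with a score of at least 0.5 and a margin of 0.25. This neighbourhood gate replaced the planned gate on single cells. Scanpy's Scrublet called 8 doublets, too few to have worked, so no doublet was removed, and the cells with the highest scores were removed as an alternative. UMIs were summed per library and class (at least 20 cells) and tested with edgeR's quasi-likelihood test with TMM normalization, filterByExpr, class as factor and library as block, over all genes, at an adjusted p of 0.05. DESeq2, other gates and filters, no block and leaving out each library were alternatives. The fit was tested on simulated data. Ages were compared as ratios of CPM with exact conditional binomial 95% intervals, and shares of cells have exact Clopper-Pearson intervals in the tables. All 10 members are described, and of each other list at most the 3 called genes with the largest log2 fold change were named. Versions were Python 3.11.15, Scanpy 1.11.5, R 4.3.3, edgeR 4.0.16 and DESeq2 1.42.0.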

Additional observations from a re-analysis of the deposited data

Results flagged for a closer look

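Several members differed between 2 ages in opposite directions in different classes. With 1 library per age these differences were not tested, and values are log2 ratios of CPM. For 6 months over P38, Mgst1 was at 1.736 in HF-SC-like and 2.265 in hair germ-like cells, and at -2.262 in IFE basal-like cells. Over the same ages Gsta3 was at 3.988 in hair germ-like and at -1.636 in SG-like cells. For 12 months over P38, Mgst1 was at 3.198 in HF-SC-like cells and at -4.618 in IFE basal-like, -2.83 in IFE spinous-like, -1.337 in Upper HF-like and -1.56 in hair germ-like cells. Gstm1 was at 1.666 in Upper HF-like and at -1.266 in IFE basal-like cells over these ages. The Mgst1 levels of IFE basal-like and IFE spinous-like cells at 6 and 12 months lay below those of T cell-like cells, which rested on 5 and 1 UMIs.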

How the results depend on the processing

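Of the single-gene values in class contrasts, 742 kept their side of the threshold, 12 gained a call and 14 lost one. Counts of members and genes called were judged apart, by a change of more than 1.5 times. Of age ratios 23 moved, 2 reversed and 175 did not, of levels 20 moved and 154 did not, and of shares of cells, set against unthinned values or 3000 UMIs, 56 moved and 16 did not. With classes from clusters, Gstm5 at 12 months over P38 turned to 0.022 in IFE basal-like and -0.844 in IFE spinous-like cells (log2), and the members called became 1 in IFE spinous-like against IFE basal-like and 0 in hair germ-like against HF-SC-like cells, with 1103 genes called for Upper HF-like and 150 for hair germ-like cells. In Upper HF-like cells 3 members were called without the filter on low counts and 2 with the DESeq2 Wald test, the stricter margin or a fit of the compared classes only. Without the library block the calls were 1 member and 607 genes for IFE spinous-like, 1225 genes for Upper HF-like, 1078 for HF-SC-like and 40 for hair germ-like cells. A fit of the compared classes only called 2907 genes for Upper HF-like, 3648 for IFE spinous-like and 2744 for HF-SC-like cells. For hair germ-like cells 2 members and 571 genes were called without the filter, 403 genes by DESeq2 and 420 with the stricter margin. Cells with at least 1000 genes gave 1332 genes for SG-like cells. At 12 months over P38, 2 members (Gstp1 higher, Gsto1 lower) were 2-fold changed in each of 5 classes with at least 1000 genes, with clusters and without shared barcodes, an alternative chosen after seeing the data. Leaving out each library, the genes called ranged from 1778 to 2055 for SG-like, 1055 to 1149 for Upper HF-like, 400 to 740 for IFE spinous-like, 941 to 1013 for HF-SC-like, 46 to 148 for hair germ-like and 2399 to 3454 for fibroblast-like cells, and the members called from 1 to 3 for Upper HF-like, 1 to 2 for IFE spinous-like, 0 to 1 for hair germ-like and 3 to 5 for fibroblast-like cells. A lone fibroblast-like library was then assumed to vary like the other classes. The causes were not tested. With DESeq2 size factors the median of all genes in SG-like against IFE basal-like cells moved to -0.105, against -0.235, and 48.76% of calls were higher, against 39.67%. For fibroblast-like cells the median moved to 0.141, against -0.035. Contrasts of IFE granular, inner bulge and inner root sheath classes were not run, since fewer than 2 libraries held a usable class. Classes were paired within libraries by the library block, and the labels give no replicate numbers beyond it.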
